A study of Mus musculus with 16 samples.

Results

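The 10 genes described here encode enzymes that modify lysine and proline in collagen and cross-link its fibres: the lysyl oxidases Lox, Loxl1, Loxl2, Loxl3 and Loxl4, the lysyl hydroxylases Plod1, Plod2 and Plod3, and the prolyl 4-hydroxylase alpha subunits P4ha2 and P4ha3. They were chosen by symbol, and all 10 were found among the 55359 genes of the count table and passed the filter on low counts, as did 20953 genes in all. RNA sequencing was done on periodontal ligament, the collagen-rich tissue that holds a tooth root in its bony socket, from wild-type C57BL/6J male mice 9 weeks old. The 16 libraries formed 4 groups of 4: untreated control, ligature (a silk thread tied round the upper left second molar, a model of periodontitis), trauma (composite resin added to the occlusal face of the same molar, a model of traumatic occlusion), and ligature plus trauma. The labels give neither the time between treatment and sampling nor the number of mice behind a library, so p-values measure the spread between libraries, which may be technical in part. The labels name no sham procedure for the control group.

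Collagen chains are hydroxylated on proline and lysine inside the endoplasmic reticulum before they are secreted. Prolyl 4-hydroxylation stabilises the triple helix, lysyl hydroxylation sets sites for sugars and for the type of cross-link, and outside the cell the copper enzymes of the lysyl oxidase family oxidise lysine and hydroxylysine to aldehydes that condense into cross-links between molecules. In periodontal ligament these steps serve a tissue whose collagen is renewed quickly and whose fibre bundles bear the force of chewing.

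The enzymes share their catalytic residues within each family, and stretches of 54 coding bases round those residues are given for 3 lysyl oxidase relatives and for the 3 lysyl hydroxylases. Sequences were read from the GENCODE M21 transcripts of the mouse build GRCm38, and residues are counted from the first methionine of the annotated protein. In the lysyl oxidases, capitals mark the codons of the 3 copper-binding histidines. The Loxl3 stretch (residues 608, 610 and 612) was spliced from exons 10 and 11 at chr6:83049989-83050140 on the plus strand. That of Loxl2 (residues 628, 630 and 632) came from exons 10 and 11 at chr14:69682310-69689052 on the plus strand, and that of Loxl4 (residues 612, 614 and 616) from exons 11 and 12 at chr19:42598792-42599905 on the minus strand.
Loxl2: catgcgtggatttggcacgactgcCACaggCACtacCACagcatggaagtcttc
Loxl3: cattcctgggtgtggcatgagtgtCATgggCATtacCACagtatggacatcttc
Loxl4: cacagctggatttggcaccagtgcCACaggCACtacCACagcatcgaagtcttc

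In the lysyl hydroxylases, capitals mark the codons of a histidine and an aspartate that help to hold the catalytic iron. All 3 stretches lie within exon 18 of the annotated transcript: Plod1 at chr4:147913253-147913306 on the minus strand (residues 657 and 659), Plod2 at chr9:92606803-92606856 on the plus strand (residues 666 and 668) and Plod3 at chr5:136994972-136995025 on the plus strand (residues 670 and 672).
Plod1: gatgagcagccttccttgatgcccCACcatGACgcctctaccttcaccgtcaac
Plod2: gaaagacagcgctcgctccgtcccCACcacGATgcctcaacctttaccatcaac
Plod3: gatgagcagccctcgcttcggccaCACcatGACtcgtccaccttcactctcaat

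Even at the catalytic site the relatives differed at the level of RNA. Plod1 and Plod3 shared 41 of the 54 bases, and Plod2 shared 37 with each. Loxl2 and Loxl4 were the closest pair shown, with 47 identical bases, while Loxl3 shared 41 with Loxl2 and 39 with Loxl4. Lox and Loxl1, whose stretches are not shown, were closer still, with 50 of 54 identical. How the counting treated reads that map to more than 1 gene is not given in the sources used here.

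The libraries held between 58458102 and 77468584 counted reads. Raw counts of the members ranged from 41 reads for Loxl4 in its lowest library to 33719 for Plod2 in its highest, and the lowest count of any other member was 323. Levels are given as CPM, each gene's share of the library's reads after scaling by the trimmed mean of M-values, and where genes are compared with each other, as CPM per kb of transcript. The label periodontal ligament was checked against 8 ligament fibroblast markers, among them Postn, Tnmd, Scx and Aspn, whose summed level was between 12231 and 48234 CPM in every library. Markers of neighbouring tissue were present too: summed oral epithelium markers ranged from 779 to 28918 CPM and summed odontoblast, pulp and enamel organ markers from 367 to 8800 CPM, with Amelx at or near 0. Both ends of the latter range were mostly Odam, at 259 CPM in ligature 1 and 8142 CPM in trauma 2. Dspp ranged from 60.5 to 2940 CPM. In trauma 3, the library with the highest epithelial sum, Krt14 alone was at 14682 CPM, above Postn at 9305 CPM and Aspn at 7258 CPM. Skeletal muscle markers summed to 743 CPM in ligature 2 and to at most 159.9 CPM in the other libraries. For ligature 2 and for ligature plus trauma 2 and 3, expression relative to the mean of all libraries fell with transcript length (Spearman rank correlation across genes -0.43, -0.34 and -0.36, against -0.17 to 0.32 in the other 13 libraries), so the members' results are also given without them where a call changed. In bulk tissue, fewer cells of a type and less RNA per cell cannot be told apart.

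**Figure D1:**
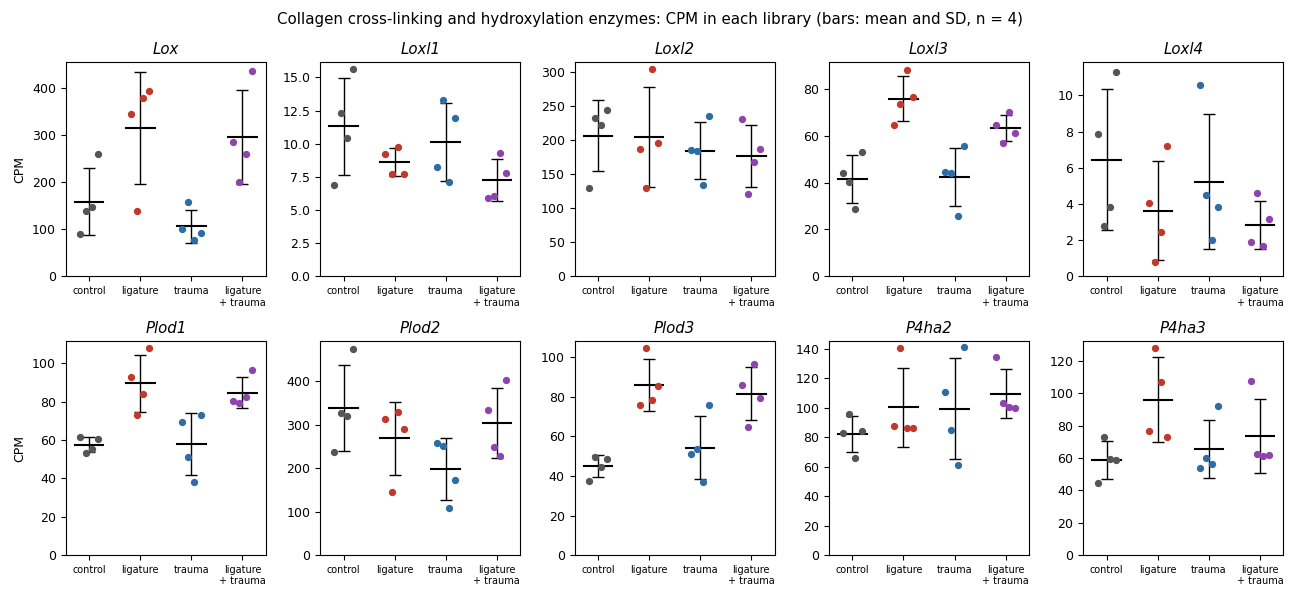
CPM of the 10 enzymes (vertical axis, linear from 0, a separate scale for each gene) in each of the 16 libraries (points) by group, with the mean and SD of 4 libraries as bars. Loxl3, Plod1 and Plod3 are higher in all 4 ligature libraries than in any control library, and ligature 2 is the low point of Lox and of Plod2 in its group.

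Plod3 and Loxl3 rose in ligature against control, Plod3 also rose in ligature plus trauma against control, and Lox rose in ligature plus trauma against trauma alone. These increases ranged from 1.82-fold to 2.78-fold. Members of the same families did not pass: Plod2, the most abundant lysyl hydroxylase, and Loxl2, close to Lox per length in control, had fitted changes near 0 or below it in ligature and in ligature plus trauma, each against control. No member was called lower in any comparison, and none was called after trauma alone.

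Plod3 encodes a lysyl hydroxylase that also transfers sugars to hydroxylysine, and it is needed for the assembly of basement membrane collagen. Its level was 37.2, 49.3, 44.5 and 48.4 CPM in control and 75.8, 104, 78.1 and 85.4 CPM in ligature. The groups did not overlap, and each ligature library lay above the highest control library. The fitted log2 fold change was 0.94 ± 0.22 (SE), an increase of 1.92-fold (edgeR quasi-likelihood test, adjusted p = 0.0122 over all genes tested). It passed the test under all 24 alternative settings, with adjusted p between 0.000483 and 0.0405.

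With both treatments, Plod3 stood at 85.7, 64.4, 96.5 and 79.1 CPM. All 4 values were above control, and they overlapped the ligature group. The log2 fold change against control was 0.86 ± 0.21 (1.82-fold, edgeR adjusted p = 0.0190). That call was lost without control 1 (adjusted p = 0.0611 by edgeR), without ligature plus trauma 3 (0.0693) and in a fit of 13 libraries that left out ligature 2 and ligature plus trauma 2 and 3 (0.0553), where the log2 fold change was 0.87. In trauma alone it was at 51.1, 53.5, 36.8 and 75.8 CPM, a spread that reached from below the lowest control library to the lowest ligature library (log2 fold change 0.28, 95% interval -0.18 to 0.73). Ligature plus trauma against trauma gave 0.58 ± 0.21 (edgeR adjusted p = 0.135), which passed only without trauma 4 (0.0447).

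Plod1 hydroxylates lysines of the helical part of collagen. It was at 61.7, 53.4, 55.2 and 60.4 CPM in control, within a narrow range, and at 93.0, 73.3, 84.0 and 108 CPM in ligature. Every ligature library was above every control library. The log2 fold change of 0.64 ± 0.20 (1.55-fold) stayed just above the threshold (edgeR adjusted p = 0.0535) and passed it in 7 of 24 alternatives, among them DESeq2 (adjusted p = 0.0123), without ligature 2 (0.0421) and without trauma 3 (0.0320). Ligature plus trauma libraries were at 80.2, 79.2, 82.6 and 96.6 CPM, again without overlap with control (log2 fold change 0.55 ± 0.20, edgeR adjusted p = 0.0798, and 0.0491 without ligature 2). In trauma alone Plod1 had 69.4, 51.0, 38.4 and 73.0 CPM, on both sides of the control range (0.01 ± 0.20).

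Plod2 hydroxylates lysines in the end regions of collagen, the telopeptides, and is known for the cross-links of stiff matrix. It was the most abundant member in control per length, at 92.6 ± 26.9 CPM per kb (SD, n = 4), against 17.8 ± 1.23 for Plod1 and 13.7 ± 1.69 for Plod3. By library it was at 236, 328, 319 and 474 CPM in control and at 313, 145, 329 and 289 CPM in ligature. The groups overlapped, and ligature 2 was the lowest (log2 fold change -0.33 ± 0.32, 95% interval -1.01 to 0.34, edgeR adjusted p = 0.541). Trauma libraries held 258, 251, 107 and 173 CPM and ligature plus trauma libraries 333, 249.9, 229 and 403 CPM. Trauma 3 and 4 were below every control library, while ligature plus trauma stood within or near the control range. Trauma against control gave -0.78 ± 0.32, with an unadjusted p of 0.0266 that did not pass over all genes (edgeR adjusted p = 0.687). Ligature plus trauma against trauma gave 0.62 ± 0.32 (1.54-fold) for Plod2, with groups that overlapped, and did not pass (edgeR adjusted p = 0.304). The interaction, the effect of trauma with a ligature minus its effect without, was 0.96 ± 0.45 and did not pass either (edgeR adjusted p = 0.9999).

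Within the family, Plod2 held most of the lysyl hydroxylase RNA in control and a smaller share on average in each treated group. Plod2 made up 73.9 ± 4.69% of the family's summed CPM per kb in control (SD, n = 4), 56.5 ± 10.1% in ligature and 60.1 ± 8.10% in trauma, and with both treatments 61.3 ± 6.00%. The lowest control library was at 68.0%, above the highest ligature library at 64.3% and the highest ligature plus trauma library at 67.1%. The highest trauma library, at 68.2%, reached into the control range. Plod3 held 11.2 ± 1.49% in control and 21.6 ± 8.20% in ligature, where ligature 2 alone was at 33.9% and the other libraries of that group were at 16.8%, 17.1% and 18.8%. These shares are descriptions and were not tested.

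**Figure D2:**
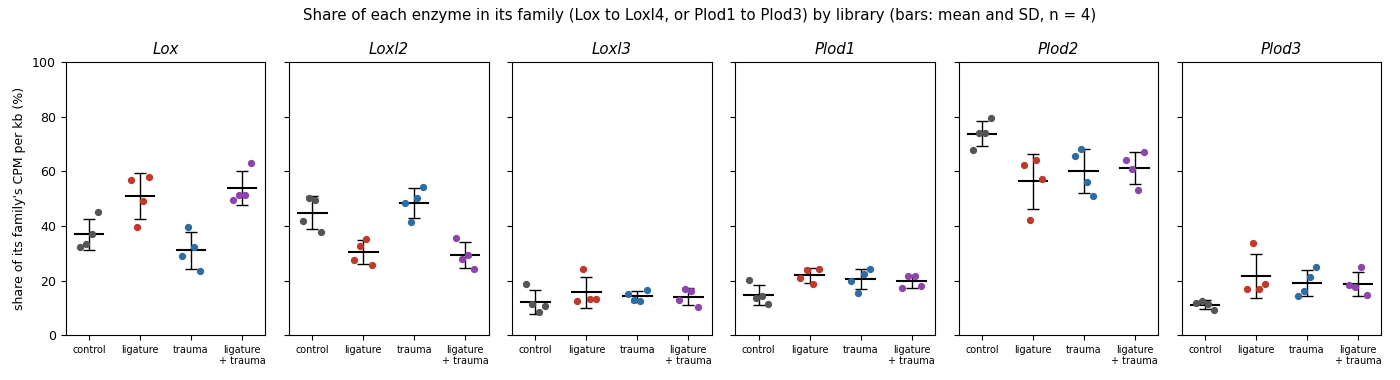
Share of 6 enzymes in the summed CPM per kb of their own family (vertical axis, percent, 0 to 100) in each library (points), with the mean and SD of 4 libraries. Plod2 averages 73.9% in control and 56.5% in ligature, Lox 36.9% and 51.0%, and Loxl2 44.9% and 30.4%.

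Lox encodes the founding lysyl oxidase, which cross-links collagen and elastin. It was at 89.1, 138, 147 and 259 CPM in control and at 344, 139, 379 and 394 CPM in ligature. Ligature 1, 3 and 4 were above all control libraries, and ligature 2 was within the control range. The log2 fold change of 0.99 ± 0.37 (1.98-fold) did not pass (edgeR adjusted p = 0.0974). It passed without ligature 2 (1.21, adjusted p = 0.0386), without control 4 (1.33, adjusted p = 0.0456) and in the fit of 13 libraries (1.22, adjusted p = 0.0361), by edgeR in each case.

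Trauma libraries held Lox at 99.2, 157, 77.2 and 91.3 CPM, and ligature plus trauma libraries at 285, 200.1, 260.2 and 436 CPM. All 4 libraries with both treatments were above all 4 with trauma alone. The difference was 1.48 ± 0.37 on the log2 scale (2.78-fold, edgeR adjusted p = 0.0299). Leaving out trauma 1, 3 or 4, or ligature plus trauma 3 or 4, ended the call, with adjusted p of 0.0776, 0.0968, 0.0744, 0.0571 and 0.0907 by edgeR and log2 fold changes from 1.23 to 1.53. Against control, ligature plus trauma overlapped and did not pass (0.90 ± 0.37, edgeR adjusted p = 0.114), and trauma alone gave -0.58 (95% interval -1.36 to 0.20, edgeR adjusted p = 0.773).

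Loxl3 encodes a lysyl oxidase-like enzyme with scavenger receptor domains. Its control libraries were at 44.4, 40.5, 28.6 and 53.1 CPM and its ligature libraries at 64.9, 73.7, 88.4 and 76.7 CPM. There was no overlap. The log2 fold change was 0.87 ± 0.23 (1.82-fold, edgeR adjusted p = 0.0257). The call ended without control 1 (0.0515), control 2 (0.0657), control 3 (0.0746) or ligature 3 (0.0605), in a fit of the ligature and control groups only (0.0518) and in the fit of 13 libraries (0.0514), with log2 fold changes from 0.72 to 0.90.

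With both treatments Loxl3 was at 64.6, 57.2, 70.2 and 61.3 CPM, and with trauma alone at 44.4, 44.3, 25.6 and 55.8 CPM. All libraries with both treatments were above all control and all trauma libraries. The log2 fold changes of 0.60 ± 0.23 against control (edgeR adjusted p = 0.0916) and 0.57 ± 0.23 against trauma (0.175) did not pass. Trauma against control gave 0.03, with a 95% interval from -0.46 to 0.52.

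Loxl2, a relative that oxidises basement membrane collagen among other targets, was at 130, 232, 222 and 244 CPM in control and 187, 129, 305 and 196 CPM in ligature. Control 1 and ligature 2 were the lowest of their groups, and the ranges overlapped over most of their width. The log2 fold change was -0.02 ± 0.28 (95% interval -0.62 to 0.58, edgeR adjusted p = 0.979). Trauma libraries ranged from 135 to 236 CPM and libraries with both treatments from 121 to 231 CPM, and no comparison passed.

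Loxl1, known for the upkeep of elastic fibres, and Loxl4, another relative with scavenger receptor domains, were the least abundant members. Loxl1 averaged 11.3 ± 3.65 CPM in control, 8.59 ± 1.05 CPM in ligature and 10.1 ± 2.93 CPM in trauma (SD, n = 4), and with both treatments 7.26 ± 1.62 CPM. Its largest fitted change was -0.64 ± 0.28 in ligature plus trauma against control (edgeR adjusted p = 0.135), and the groups overlapped. Loxl4 varied widely within every group, from 2.79 to 11.3 CPM in control and from 0.80 to 7.22 CPM in ligature, and its log2 fold change of -0.83 had a 95% interval from -2.17 to 0.51.

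Per length, Lox and Loxl2 made up most of the family. In control, Loxl2 was at 38.9 ± 9.83 CPM per kb and Lox at 33.4 ± 15.2 CPM per kb (SD, n = 4), which did not differ beyond their spread. Loxl3 followed at 10.2 ± 2.48, Loxl1 at 3.43 ± 1.11 and Loxl4 at 1.73 ± 1.05 CPM per kb, and the ranges of the last pair overlapped. Lox made up 36.9 ± 5.79% of the family's summed level in control, 51.0 ± 8.55% in ligature and 31.1 ± 6.67% in trauma, and with both treatments 53.9 ± 6.33%. The Loxl2 shares of the same groups were 44.9 ± 6.05%, 30.4 ± 4.43%, 48.5 ± 5.37% and 29.3 ± 4.82%. The 8 libraries with a ligature held Loxl2 shares from 24.2% to 35.7%, and the 8 without held shares from 37.8% to 54.2%. The Loxl2 level itself overlapped, at 121 to 305 CPM with a ligature and 130 to 244 CPM without. These shares, too, are descriptions and were not tested.

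P4ha2 and P4ha3 encode alternative catalytic subunits of prolyl 4-hydroxylase, which pair with the common partner P4hb. P4ha3 was at 44.6, 73.2, 59.4 and 58.9 CPM in control and at 76.6, 128, 107 and 72.9 CPM in ligature. The ranges touched only where ligature 4 fell just below control 2. The log2 fold change was 0.70 ± 0.26 (1.63-fold) and did not pass (edgeR adjusted p = 0.0927). With both treatments P4ha3 was at 108, 62.7, 61.6 and 62.0 CPM, where library 1 stood far above the other 3 (log2 fold change against control 0.32 ± 0.26, edgeR adjusted p = 0.430).

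P4ha2 was at 83.1, 95.8, 65.9 and 84.6 CPM in control and at 87.5, 140.7, 86.5 and 86.4 CPM in ligature. Ligature 2 was high and the other 3 ligature libraries were within the control range (log2 fold change 0.28 ± 0.25, edgeR adjusted p = 0.495). In ligature plus trauma all 4 libraries, at 135, 103, 100.4 and 100.1 CPM, were above all control libraries, and the log2 fold change of 0.41 ± 0.25 did not pass (edgeR adjusted p = 0.274). P4ha1, the most widely expressed alpha subunit and not a member, averaged 117 CPM in control and 155 CPM in ligature, a difference that did not pass (0.40 ± 0.21, edgeR adjusted p = 0.235). Among the 3 alpha subunits, P4ha2 held 40.3 ± 4.67% of their summed CPM per kb in control and 35.7 ± 2.90% in ligature (SD, n = 4).

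Counted over the 10 members, 2 were called higher and 0 lower in ligature against control, where 5.88% of all tested genes were called higher and 4.78% lower. For ligature plus trauma against control, 1 was called higher and 0 lower, against 6.83% and 5.62% of all tested genes. Between ligature plus trauma and trauma, 1 was called higher and 0 lower, against 2.21% and 3.27%. Among 10 genes such shares correspond to fewer than 1 gene in either direction, so a count of 1 is near the background and the count of 2 lies 1 to 2 genes above it. The median log2 fold change of the members in ligature against control was 0.46, with 6 of 10 positive, and that of all tested genes was -0.05. With both treatments against control, the members' median was 0.36 against -0.08 for all tested genes.

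After trauma alone 0 members were called by edgeR, and 0.00477% of all tested genes were. At an unadjusted p under 0.05, 1 member (Plod2) and 1450 of the 20953 genes passed. Between ligature plus trauma and ligature 0 members and 0% of all tested genes were called (unadjusted, 0 members and 734 genes). For the interaction the counts were again 0 members and 0% of all tested genes (unadjusted, 1 member, Plod2, and 1032 genes). DESeq2 called 0 members in these 3 comparisons too. The widest 95% interval of a member in trauma against control, that of Loxl4, ran from -1.63 to 1.03 on the log2 scale.

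**Figure D3:**
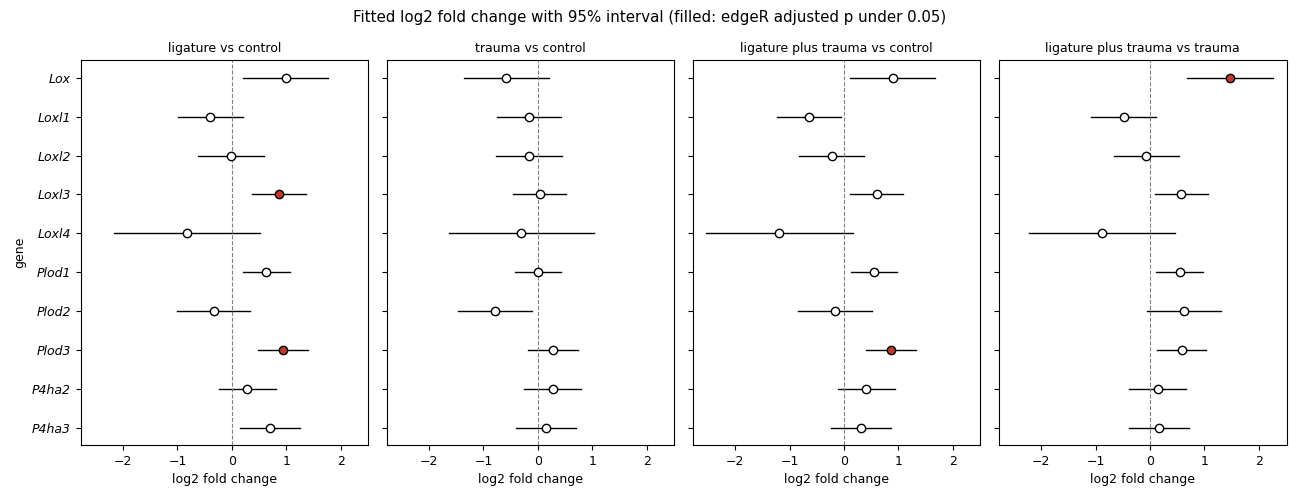
Fitted log2 fold change (horizontal axis) of each of the 10 enzymes (vertical axis) in 4 comparisons, with 95% intervals as lines and filled circles where the edgeR adjusted p is under 0.05. Filled circles are Loxl3 and Plod3 in ligature against control, Plod3 in ligature plus trauma against control and Lox in ligature plus trauma against trauma.

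Without regard to a model, 3 members (Loxl3, Plod1 and Plod3) were higher in every ligature library than in every control library, as were 9.97% of all tested genes. Between ligature plus trauma and control it was 4 members (Loxl3, Plod1, Plod3 and P4ha2) and 10.8% of all tested genes. Against trauma it was 3 members (Lox, Loxl3 and Plod1) and 5.74% of all tested genes. Over all 16 libraries, Loxl3 and Plod1 were higher in each of the 8 libraries with a ligature than in each of the 8 without, as were 2.57% of all tested genes, and 0 members were lower in all 8, as were 2.05%. For Loxl3 the lowest library with a ligature was at 57.2 CPM and the highest without at 55.8 CPM. For Plod1 these were 73.3 and 73.0 CPM, a gap smaller than the spread within any group.

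Col1a1 and Col1a2, the chains of type I collagen and the main substrate of these enzymes, were called lower in both groups with a ligature against control. Col1a1 averaged 11845 CPM in control and 6133 CPM in ligature (-0.95 ± 0.25 on the log2 scale, edgeR adjusted p = 0.0256), and 4023 CPM in ligature plus trauma (-1.56 ± 0.26, edgeR adjusted p = 0.00197). The call in ligature ended without control 2 (edgeR adjusted p = 0.0562), control 4 (0.0700) or ligature 1 (0.0743) and with the length trend removed (-0.53, 0.0537). In trauma all 4 libraries, at 6217 to 8372 CPM, were below the lowest control library, at 10287 CPM, and the fitted change of -0.78 ± 0.25 did not pass (edgeR adjusted p = 0.621). Member levels were therefore also set against Col1a1 within each library. Lox stood at 9.59, 14.5, 17.9 and 24.0 CPM per kb for each 1000 CPM per kb of Col1a1 in control, and at 79.0, 47.9, 59.4 and 66.0 in ligature. In trauma the ratio was 14.8, 31.5, 15.3 and 17.1, and in ligature plus trauma 83.8, 69.2, 103 and 108.

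All 8 libraries with a ligature had a Lox ratio above all 8 without, including ligature 2, whose Lox level alone was within the control range. Loxl3 did likewise, at 14.9 or more with a ligature and 12.1 or less without. These were 2 of the 10 members, and 5.26% of all tested genes had a ratio to Col1a1 that separated the libraries in this way. In ligature against control 8 of the 10 members were higher without overlap in this ratio, and so were 37.3% of all tested genes, since the level of Col1a1 itself fell. The exceptions were Loxl1 and Loxl4. In trauma against control 5 members (Loxl3, Plod1, Plod3, P4ha2 and P4ha3) were higher without overlap in the ratio, as were 29.7% of all tested genes.

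**Figure D4:**
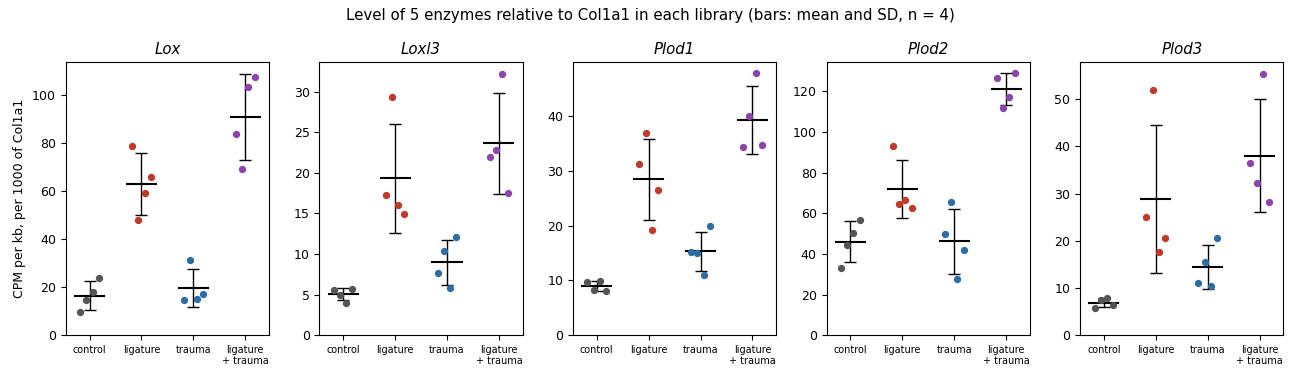
Level of 5 enzymes in CPM per kb for each 1000 CPM per kb of Col1a1 (vertical axis, linear from 0, separate scales) in each library (points), with the mean and SD of 4 libraries. The Lox ratio is 47.9 or more in all libraries with a ligature and 31.5 or less in all without.

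Among the other genes of collagen maturation, calls in ligature against control were counted by list. Of all tested genes 10.7% were called in either direction in that comparison, and no list was tested against this share. None of 8 further prolyl hydroxylase subunits and partners (P4ha1, P4hb, P3h1 to P3h4, Crtap and Ppib) and neither of the 2 hydroxylysine glycosyltransferases, Colgalt1 and Colgalt2, was called. Of 11 chaperones and export factors 1 was called, Tmem38b, an endoplasmic reticulum cation channel whose loss disturbs collagen hydroxylation, which rose from a mean of 11.3 CPM to 27.7 CPM (1.29 ± 0.19 on the log2 scale, edgeR adjusted p = 0.000839). Tmem38b rose likewise in ligature plus trauma (1.19 ± 0.19, edgeR adjusted p = 0.00158). Serpinh1, Fkbp10 and the other members of that list did not pass.

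Of 7 tested propeptidases and enhancers, which trim procollagen, 0 passed in ligature against control, and Adamts2, which removes the amino-terminal propeptide, was called lower in ligature plus trauma against control (-0.78 ± 0.23, edgeR adjusted p = 0.0403), a call kept in 7 of 18 settings and lost in the fit of 13 libraries (-0.56, 0.236). Among 8 lysyl oxidase partners and copper suppliers, Atox1, the copper chaperone, rose from 116 to 383 CPM (1.73 ± 0.54, edgeR adjusted p = 0.0497), and Ltbp4, an organiser of elastic fibres, fell from 62.7 to 26.4 CPM (-1.25 ± 0.38, edgeR adjusted p = 0.0476). The Atox1 libraries of the ligature group were at 234, 915, 175 and 211 CPM, and ligature 2 was far above the rest. Without ligature 2 the Atox1 mean was 206 CPM and its change did not pass (0.81 ± 0.42, edgeR adjusted p = 0.277), nor did it in the fit of 13 libraries (0.81, 0.0896). The Ltbp4 change was -1.02 without ligature 2 (edgeR adjusted p = 0.0996), and each of these calls ended under most of the settings run. Fn1, Postn, Efemp2, Fbln5, Atp7a and Slc31a1 did not pass.

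Of 11 fibrillar collagen chains, 1 was called higher and 3 lower. Col5a3 rose from 10.9 to 62.9 CPM (2.53 ± 0.43, edgeR adjusted p = 0.00191). Col1a1, Col1a2 (-1.07 ± 0.25, edgeR adjusted p = 0.0138) and Col27a1 (-0.83 ± 0.25, edgeR adjusted p = 0.0450) fell, and the list's median was -0.79. Of 9 elastic fibre genes, Mfap4 (-3.98 ± 0.73, edgeR adjusted p = 0.00308) and Fbn2 (-1.77 ± 0.40, edgeR adjusted p = 0.0117) fell. Tgm2, a transglutaminase that cross-links matrix proteins through glutamine and lysine, rose from 50.8 to 152 CPM (1.58 ± 0.35, edgeR adjusted p = 0.0104). Of its 5-gene list Tgm3, an epithelial transglutaminase, was called lower, with no count in any ligature library and a mean of 4.60 CPM in control. Control libraries were at 5.32, 12.5, 0.50 and 0.098 CPM, so that mean rested on control 1 and 2.

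Plod1, Plod2, P4ha1, P4ha2 and Lox are known as targets of hypoxia-inducible factors, and 12 further such genes were measured. In ligature against control 2 were called higher and 0 lower. Car9, a carbonic anhydrase, went from 0.449 to 4.26 CPM (3.24 ± 0.61, edgeR adjusted p = 0.00343), and Pgk1, a glycolytic enzyme, from 143 to 295 CPM (1.05 ± 0.24, edgeR adjusted p = 0.0131). The list's median was -0.12, and Ldha and Ndrg1 were among those that did not pass.

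Each called gene of these lists was refitted with every library left out in turn, with 13 libraries and with the length trend removed, 18 settings chosen after the data were seen. Of 13 genes called in ligature against control, 7 passed under all 18: Tmem38b, Col5a3, Mfap4, Fbn2, Tgm2, Car9 and Pgk1. Atox1 passed in 5 settings, Ltbp4 and Col27a1 in 6 each, Tgm3 in 12, Col1a1 in 14 and Col1a2 in 17, where the exception was removal of the length trend (-0.66, edgeR adjusted p = 0.0971). For Col27a1 the change was -0.77 without ligature 2 (edgeR adjusted p = 0.0919) and -0.29 with the length trend removed (0.478). Of 14 called in ligature plus trauma against control, Tmem38b and Col1a1 passed under all 18.

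The core motif of these factors was searched in the 250 bases upstream of the start of transcription, in RefSeq promoters of GRCm38.p6, which held Loxl4, P4ha2, P4ha3, Plod1 and Plod3 of the 10 members. The letters searched were ACGTG and GCGTG on both strands, of which the first overlaps the E-box CACGTG. Plod3 had 4 matches, P4ha2 3, Plod1 and Loxl4 1 each and P4ha3 0, and 38.6% of 32851 promoters of that length held at least 1. The upstream bases of these members were 55.6% (Plod3) to 76.0% (Loxl4) G or C, against a median of 52.4% over all these promoters. Both motifs contain CG, so the share of 38.6% is not matched to the members for base composition. The upstream bases of Plod1 (chr4:147936777-147937026, minus strand) and Plod3 (chr5:136986769-136987018, plus strand), lysyl hydroxylases that were both higher in every ligature library than in every control library, are shown with matches in capitals. A match is a description of the letters and not a bound site.
Plod1 upstream: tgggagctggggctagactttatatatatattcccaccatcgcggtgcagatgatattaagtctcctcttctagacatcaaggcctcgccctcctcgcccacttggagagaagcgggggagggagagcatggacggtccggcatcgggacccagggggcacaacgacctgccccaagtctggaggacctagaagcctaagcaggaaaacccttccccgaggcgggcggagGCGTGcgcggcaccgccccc
Plod3 upstream: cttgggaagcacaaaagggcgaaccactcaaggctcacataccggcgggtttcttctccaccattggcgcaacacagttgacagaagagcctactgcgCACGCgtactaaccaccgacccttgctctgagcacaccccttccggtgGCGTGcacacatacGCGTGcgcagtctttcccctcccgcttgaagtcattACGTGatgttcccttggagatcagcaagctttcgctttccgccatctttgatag

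Markers of several cell types moved with the ligature. All 5 endothelial markers were called higher in ligature against control, and their summed level was 133 to 244 CPM in control and 439 to 586 CPM in ligature. It was at most 261 CPM in trauma, and 434 to 568 CPM with both treatments. All 6 osteoclast markers were called higher, with sums of 1085 to 4064 CPM in control and 10785 to 15330 CPM in ligature. Of 5 macrophage markers 2 were called higher and 2 lower, with sums of 269 to 450.1 CPM and 632 to 1045 CPM. Of 8 ligament fibroblast markers 1 (Col12a1) was called higher and 2 (Tnmd and Aspn) lower, and of 7 oral epithelium markers 4 were called lower. Of 5 neutrophil markers 3 were called higher, with sums of 199 to 708 CPM in control and 569 to 1392 CPM in ligature. The neutrophil markers were not particular to the ligature. In trauma against control all 5 had positive log2 fold changes, with a median of 2.54 against 1.91 in ligature, and 0 were called. Of 7 osteoblast markers 3 (Bglap, Sp7 and Runx2) were called lower, with sums of 6006 to 11766 CPM in control and 8964 to 10316 CPM in ligature.

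Between ligature plus trauma and trauma, where Lox was called higher, all 7 oral epithelium markers were called lower, with a median of -3.49 on the log2 scale. Their sums were 4484 to 28918 CPM in trauma, highest in trauma 3, and 779 to 2595 CPM with both treatments. All 6 osteoclast markers were called higher, with sums of 1344 to 4121 CPM in trauma and 10196 to 12859 CPM with both, and so were 4 of the 5 endothelial markers. Trauma 3, the library with the most epithelial signal, had the lowest Lox level of all 16 libraries, at 77.2 CPM. The same library was also the lowest of the 16 for Loxl3 (25.6 CPM), Plod1 (38.4), Plod2 (107), Plod3 (36.8) and P4ha2 (61.1). For Loxl1, Loxl2, Loxl4 and P4ha3 another library was lowest. Trauma 4, with the lowest epithelial sum of the trauma group, had Lox at 91.3 CPM, below trauma 1 and 2 at 99.2 and 157 CPM. The part of these shifts in the changes of Lox, Loxl3, Plod3 and the other members was not tested.

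The genes whose pattern over the 16 libraries was closest to each member were found by the root-mean-square difference of centred log2 CPM among 9862 genes, as a description. Lox lay closest to Pecam1, the endothelial adhesion molecule (0.28), then to Ostm1, a subunit of the lysosomal chloride transporter (0.33), and Atp6v1a, a subunit of the vacuolar proton pump (0.35), while Lox itself varied with an SD of 0.84. Loxl3 lay closest to Lrp1, an endocytic receptor (0.18), then to Psen2 (0.21) and Agpat4 (0.24). Plod1 lay closest to Adam15, a membrane metalloprotease (0.14), then to Sdha, a subunit of succinate dehydrogenase (0.15), and Hgsnat (0.15). Plod3 lay closest to Mcfd2, a cargo receptor subunit of the secretory pathway (0.20), then to Ctsa (0.20) and, like Loxl3, to Agpat4 (0.20).

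For Plod2 the nearest were Pdp1 (0.22), Fermt2 (0.24) and Hspa13 (0.25). Those of Loxl1 were Iqsec1 (0.25), 2610301B20Rik (0.26) and Fn1, the fibronectin gene (0.27). For Loxl2 they were Cntrl, Thoc1 and Cdh11 (0.19 each), and for Loxl4 Chka (0.48), Vldlr (0.49) and Abcd2 (0.51). P4ha2 lay near Clk3 (0.17), Mfsd10 (0.18) and Sqstm1 (0.19). P4ha3 lay near Ctsb, the lysosomal cathepsin B (0.19), Lgals3bp (0.21) and P4ha1, the alpha subunit of the same enzyme (0.22).

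The calls of several members depended on how transcript length was treated. With each library's length trend removed, 5 members were called higher in ligature against control: Lox (log2 fold change 1.30, edgeR adjusted p = 0.00851), Loxl3 (1.27, 0.00264), Plod1 (0.90, 0.00288), Plod3 (1.26, 0.00382) and P4ha3 (0.85, 0.0361). The median of all genes moved from -0.05 to 0.13 under that setting and 3212 genes were called in place of 2234. Relative to that median the changes of Lox, Loxl3, Plod1 and Plod3 were still above their values with the trend in place. That of P4ha3, which moved from 0.70 to 0.85, was not, and P4ha3 was called in 1 of 24 settings. In the fit of 13 libraries Plod3 and Lox were called, at 0.81 and 1.22, and Loxl3, at 0.86, was not. Nor were Plod1 (0.70, edgeR adjusted p = 0.0509) and P4ha3 (0.52, 0.237) called in that fit.

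**Figure D5:**
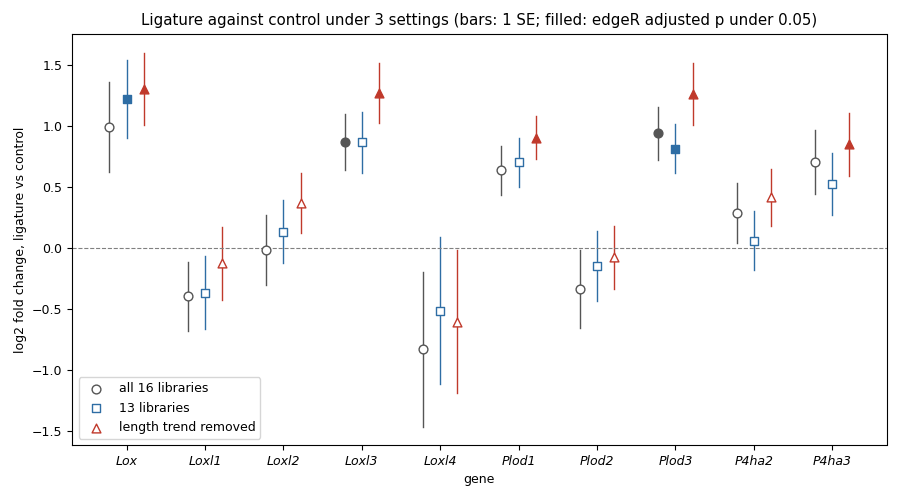
Log2 fold change of the 10 enzymes in ligature against control (vertical axis) with all 16 libraries, with 13 libraries and with the length trend of each library removed; bars are 1 SE and filled symbols have an edgeR adjusted p under 0.05. Plod3 is filled under all 3 settings, and Lox under the latter pair.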

How the data were processed

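Read counts per gene came from the table the authors deposited: whole numbers, not normalised, for 55359 genes in 16 libraries, per the file headers. RNA was extracted from periodontal ligament and enriched for poly(A) RNA, per the labels' protocols. Without roles or order, these tools appear in the submitters' processing notes: HISAT2 2.2.1, StringTie 2.1.7, Trimmomatic 0.39, DESeq2 1.32.0 and FastQC 0.11.9, beside the build GRCm39. Not given in the sources used here: the counting tool, its strand setting, its annotation release and its treatment of multiply mapped reads. Reads of overlapping or antisense genes therefore cannot be separated. Library totals were 58458102 to 77468584 reads, and intervals cover the spread between libraries.

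Gene symbols (52083 of 55359 identifiers matched) and transcript lengths came from GENCODE M21 on GRCm38, and sequences from its transcripts and from RefSeq promoters. Counts were tested with edgeR 4.0.16 in R 4.3.3: trimmed-mean scaling, filterByExpr with a minimum count of 10, 1 quasi-likelihood fit of the 4 groups, contrasts between them, and Benjamini-Hochberg adjustment over 20953 genes with calls at an adjusted p under 0.05. The procedure was tested on simulated data. CPM per kb divides CPM by transcript length, and log2 CPM for pattern comparisons used a prior count of 2.

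The members, gene lists, markers and tests were chosen with earlier results of these data known. All 10 members are named. In each pathway list, the rule took up to 4 genes with the lowest p in ligature against control and, where a gene was called there, in ligature plus trauma against control; values are printed for those called in the former and some called in the latter. P4ha1 was added as the remaining alpha subunit, and other list genes are only named as list members. For each member its 3 nearest patterns are named, among genes with mean log2 CPM of at least 3. Alternatives were DESeq2 1.42.0, its size factors in edgeR, no filter, a filter of 50 counts in 4 libraries, a fit restricted to the compared groups, a block for the replicate number, each library left out in turn, 13 libraries, and removal of each library's trend with transcript length (spline with 5 degrees of freedom). For called list genes, the fits without a library, with 13 libraries and without the length trend were chosen after seeing the data. The interaction needs all 4 groups, so it has no fit of compared groups only.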

Additional observations from a re-analysis of the deposited data

Results flagged for a closer look

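In groups of 4 libraries, the highest or lowest library of each member was compared with the other 3 by Dixon's test. Of 40 such groups 4 had a library beyond the 95% critical value, where chance gives about 1 in 20. P4ha2 was at 140.7 CPM in ligature 2, against 86.4 to 87.5 CPM in the other ligature libraries. P4ha2 was also high in ligature plus trauma 1, at 134.5 CPM against 100.1 to 103.3 CPM. P4ha3 was high in the same library, at 107.8 CPM against 61.6 to 62.7 CPM, and in trauma 4, at 92.5 CPM against 53.6 to 59.9 CPM. All 4 concern the prolyl 4-hydroxylase subunits, and no lysyl oxidase or lysyl hydroxylase had such a library. Ligature 2 is also the library with the strongest fall of expression with transcript length, and the part of this in its P4ha2 value was not tested.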

How the results depend on the processing

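Over 1430 recomputed member values, 1395 stayed on the same side of the threshold, 21 passed only in an alternative and 14 only in the analysis reported; no called change turned its sign, and 72 values that were never called did. In ligature against control, 2 members were called, 1 in a fit of the compared groups only, 5 with the length trend removed, and 1 to 4 with a library left out. In ligature plus trauma against control, 1 was called, 2 by DESeq2, 2 with the compared groups only, 0 with 13 libraries, 4 with the length trend removed, and 0 to 2 with a library left out. In ligature plus trauma against trauma, 1 was called, 3 with the length trend removed, and 0 to 1 with a library left out; without trauma 4 that gene was Plod3, not Lox. The cause of these shifts was not tested. In trauma against control, ligature plus trauma against ligature and the interaction, 0 members were called under every alternative run. Over all genes, DESeq2 called 3859 in place of 2234 in ligature against control and 127 in place of 1 in trauma against control, and the fit of 13 libraries called 743 in place of 2609 in ligature plus trauma against control. Libraries with the same replicate number did not deviate together (correlations -0.16 to 0.22, over 0.1 in 5 of 24 pairs); with the replicate block 3 members were called in ligature against control (Plod1 joined, edgeR adjusted p = 0.0402). Depth was high for all members but Loxl4 and Loxl1; 4 libraries a group set the precision.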
